A study of Bos indicus with 8 samples.

Results

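The BCL2 family decides at the outer mitochondrial membrane whether a cell enters apoptosis, and its transcripts were followed in vitrified and in control cattle blastocysts. The family was taken as 10 genes, the anti-apoptotic BCL2, BCL2L1 and MCL1 and the pro-apoptotic BAX, BAK1, BCL2L11, BID, BAD, BBC3 and PMAIP1, and its probes were those that the array's annotation gives 1 of these symbols. This selected 12 of the 43794 gene probes, for 8 of the 10 genes. No probe carried the symbol BBC3 or PMAIP1 in the annotation used here, so both were not analysed, and 11 probes of 7 genes were bright enough to be tested. RefSeq's list of genes for a Bos indicus assembly holds all 10 symbols.

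The vitrified group consisted of Bos indicus blastocysts produced in vitro, taken between 144 and 156 h after insemination, passed through 15% ethylene glycol, 15% dimethylsulfoxide and 0.5 M sucrose, and plunged into liquid nitrogen on a Cryotop, a thin strip that carries embryos in a very small volume. They stayed in nitrogen for at least 30 min, were warmed through 1 M sucrose and were cultured for a further 4 h. The control group consisted of blastocysts of the same production that waited in holding medium at the bench during this time, without cryoprotectant or cooling, and then had the same 4 h of culture. Embryos of both groups were kept for RNA extraction only if they looked normal at the end, so embryos that had visibly degenerated were not measured. Each pool held 10 embryos, and 4 vitrified pools were hybridized against 4 control pools, per the series' design text. These are whole embryos of mixed cell types, in which fewer cells of a type and less RNA per cell cannot be told apart.

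The products of the family act in 3 layers. BAX and BAK1 are the effectors that, once active, permeabilize the outer mitochondrial membrane and release cytochrome c. BCL2, BCL2L1 and MCL1 bind and restrain the effectors, and the BH3-only proteins BCL2L11 (BIM), BID, BAD, BBC3 (PUMA) and PMAIP1 (NOXA) either neutralize these guardians or activate the effectors directly. Much of this control acts on the proteins, through phosphorylation, cleavage and degradation, and MCL1 in particular is a short-lived protein. Blastocysts normally lose some cells by apoptosis, in the inner cell mass as well as in the trophectoderm. A transcript level is therefore only part of the state of this pathway.

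The 8 two-colour arrays lay on 2 slides. Vitrified RNA was in Cy5 on areas 1 and 3 of each slide and in Cy3 on areas 2 and 4, so that neighbouring areas formed 4 dye-swap pairs: areas 1 and 2 of the first slide (the first pair), areas 3 and 4 of the first slide (the second pair), and areas 1 and 2 and areas 3 and 4 of the second slide (the third pair and the fourth pair). With the dye term removed, the ratios of neighbouring areas correlated across probes at a mean r of 0.862 over 4 pairs of arrays, against 0.102 for the 4 pairs of arrays that share a replicate number in the labels. Probes are not independent replicates, and the labels do not state that neighbouring areas hold the same pools. The pair was the unit of replication here. Of the probes, 70.9% to 81.7% were above background in the vitrified channel and 74.8% to 79.4% in the control channel of an array. Values below are log2 ratios of vitrified over control, with the mean and SD over the 4 pairs, unless a level is named. A level is the normalized log2 intensity of a probe in 1 pool, averaged over both dyes, and levels of different probes are not compared.

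No member passed the test. At a Benjamini-Hochberg adjusted p under 0.05 from limma, 0 of the 11 member probes were called, against 0% of the 35362 probes tested in either direction, and the smallest adjusted p on the whole array was 0.439. At an unadjusted p under 0.05, 1 of the 11 member probes was called, against 7.67% of all tested probes. The same sign in all 4 pairs was shown by 2 of the 11, against 15.6% of all, and on all 8 arrays by 1 of the 11, against 2.83% of all. The median log2 ratio of the 11 member probes was 0.039, with 6 above and 5 below 0, against a median of 0.0021 over all tested probes. Their median absolute log2 ratio was 0.051, against 0.049 over all. For all 12 member probes the levels in the 4 vitrified pools overlapped those in the 4 control pools, and the same held for all but 2.27% of tested probes. The 95% intervals of the 11 tested probes spanned measured ratios from 0.781-fold to 1.42-fold of control. A larger change in the mean measured ratio of any 1 of these probes lay outside its interval. The probes of BCL2, BAK1 and BCL2L11 and the BCL2L1 probe EMBV3_29163 were dim, with mean log2 intensities of 6.70 to 7.12. Compression of ratios this dim was not tested, so these intervals do not bound a change in the transcript. With 4 pairs, an exact sign-flip test of a single probe cannot go below p = 0.125.

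**Figure D1:**
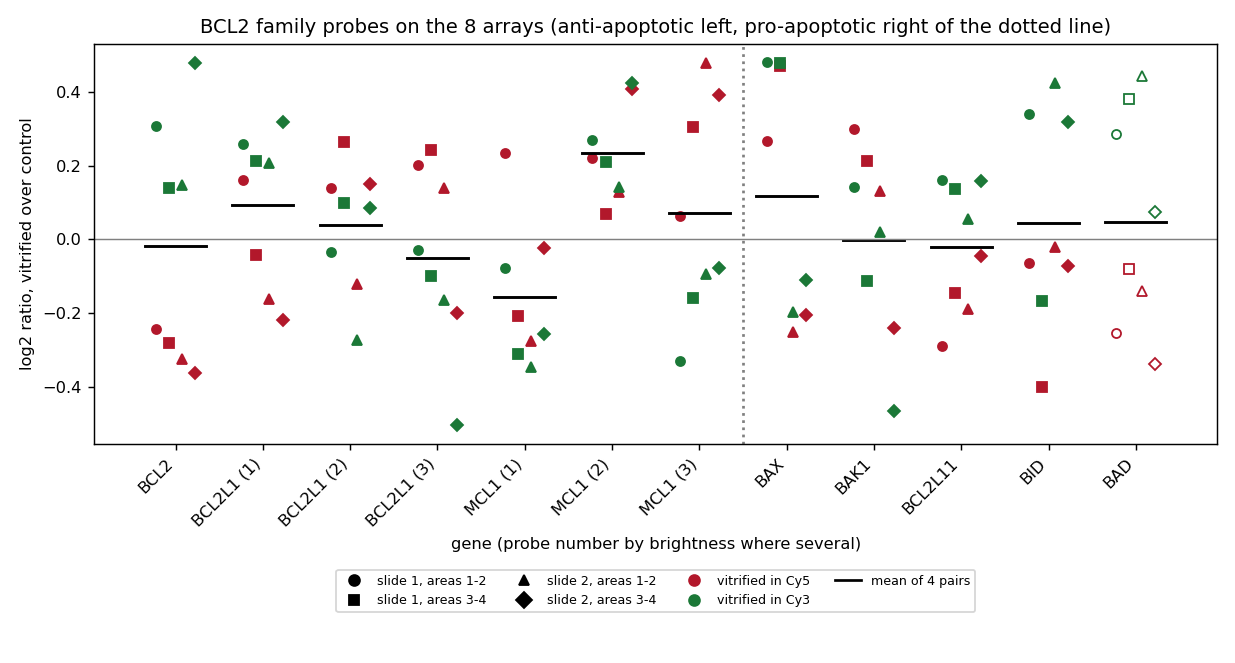
Log2 ratio of vitrified over control (vertical axis) of the 12 BCL2 family probes on each of the 8 arrays, with the anti-apoptotic genes left and the pro-apoptotic genes right of the dotted line. Shape gives the dye-swap pair, colour the dye that held vitrified RNA, open points the untested BAD probe and bars the mean of 4 pairs. The second MCL1 probe lies above 0 on 8 of 8 arrays, BAX lies above 0 on the 4 arrays of the first slide and below 0 on the 4 arrays of the second, and BCL2 divides by dye.

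MCL1, a guardian without which mouse embryos fail around implantation, was measured by 3 probes, and these did not move together. Its brightest probe, EMBV3_00650, had log2 ratios of 0.079, -0.26, -0.31 and -0.14 in the 4 pairs and lay below 0 on 7 of 8 arrays. The mean was -0.16 ± 0.17 (SD, n = 4 pairs), with a 95% interval from -0.36 to 0.042 and a limma adjusted p of 0.738. Its level was 12.51, 12.00, 11.93 and 12.14 in the vitrified pools, against 12.43, 12.26, 12.24 and 12.28 in the control pools. The vitrified pool of the first pair was the highest of all 8 pools, and the other vitrified pools lay below every control pool.

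The second MCL1 probe, EMBV3_08035, pointed the other way. Its log2 ratios were 0.22 and 0.27 on the arrays of the first pair, 0.069 and 0.21 on those of the second, 0.13 and 0.14 on those of the third and 0.41 and 0.42 on those of the fourth. It was the only member probe above 0 on 8 of 8 arrays, a pattern shown by 1.24% of tested probes. The mean was 0.23 ± 0.13 (SD, n = 4 pairs), or 1.18-fold, with a 95% interval from 0.073 to 0.39. Alone among the member probes it had an unadjusted p under 0.05 in the limma fit, and its adjusted p was 0.512. Its level was 11.76, 11.74, 11.83 and 11.65 in the vitrified pools and 11.51, 11.61, 11.69 and 11.24 in the control pools, so that the ranges overlapped through the third control pool and the fourth vitrified pool.

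The third MCL1 probe, EMBV3_02075, had log2 ratios of -0.13, 0.073, 0.19 and 0.16 in the 4 pairs, with a mean of 0.072 ± 0.15 (SD) and a limma adjusted p of 0.886. It also differed between dyes: with vitrified RNA in Cy5 its ratio was 0.063, 0.31, 0.48 and 0.39, and with vitrified RNA in Cy3 it was -0.33, -0.16, -0.095 and -0.078. The brightest MCL1 probe lay below the second in all 4 pairs, by -0.17, -0.40, -0.44 and -0.56, a mean difference of -0.39 ± 0.16 (SD). Among the 3271 genes with more than 1 tested probe, the gap between the highest and the lowest probe of MCL1 stood at percentile 91.6. Among the 1126 genes with exactly 3 tested probes it stood at percentile 86.2. These genes were not matched to MCL1 in brightness, so the percentiles do not show that its probes disagree more than those of equally bright genes. The annotation does not say where in the transcript the probes lie, and whether they read different transcript ends or isoforms was not tested. The direction for MCL1 therefore depends on the probe.

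BCL2L1, whose long product BCL-XL guards mitochondria in many epithelia, was also read by 3 probes. The brightest, EMBV3_12898, had log2 ratios of 0.21, 0.086, 0.023 and 0.050 in the 4 pairs, all above 0, as in 8.2% of tested probes. The mean was 0.092 ± 0.082 (SD, n = 4 pairs), with a 95% interval from -0.026 to 0.21 and a limma adjusted p of 0.746. Its level was 7.83, 7.66, 7.87 and 7.72 in the vitrified pools, against 7.62, 7.57, 7.84 and 7.67 in the control pools. Each vitrified pool was above its own control pool, while the ranges overlapped.

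The other BCL2L1 probes lay closer to 0 or below it. EMBV3_06599 had pair values of 0.053, 0.18, -0.20 and 0.12, with a mean of 0.039 ± 0.17 (SD). EMBV3_29163, which was above background on 7 of the 8 vitrified channels, had pair values of 0.086, 0.072, -0.011 and -0.35, with a mean of -0.051 ± 0.21 (SD). The gap between the highest and lowest of the 3 probes, 0.14, stood at percentile 38.9 of genes with 3 tested probes, again not matched in brightness. BCL2L1 makes both a long, anti-apoptotic and a short, pro-apoptotic protein by alternative splicing, and the probes are not annotated to either.

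BCL2 itself, the founding member of the family, showed the smallest mean ratio in absolute size of the anti-apoptotic genes, on a dim probe. Its log2 ratios in the 4 pairs were 0.033, -0.071, -0.089 and 0.058, with a mean of -0.017 ± 0.074 (SD, n = 4 pairs), a 95% interval from -0.13 to 0.094 and a limma adjusted p of 0.966. Its level was 6.87, 7.05, 7.01 and 7.05 in the vitrified pools, against 6.83, 7.12, 7.10 and 6.99 in the control pools. On single arrays the ratio followed the dye: with vitrified RNA in Cy5 it was -0.24, -0.28, -0.32 and -0.36, and with vitrified RNA in Cy3 it was 0.31, 0.14, 0.15 and 0.48. The dye term was called for 4 of the 11 member probes (BCL2, the brightest BCL2L1 probe, the third MCL1 probe and BCL2L11), against 31.3% of all tested probes. Averaging the 2 arrays of a pair cancels this term, and a ratio from 1 array of these probes would not measure vitrification.

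**Figure D2:**
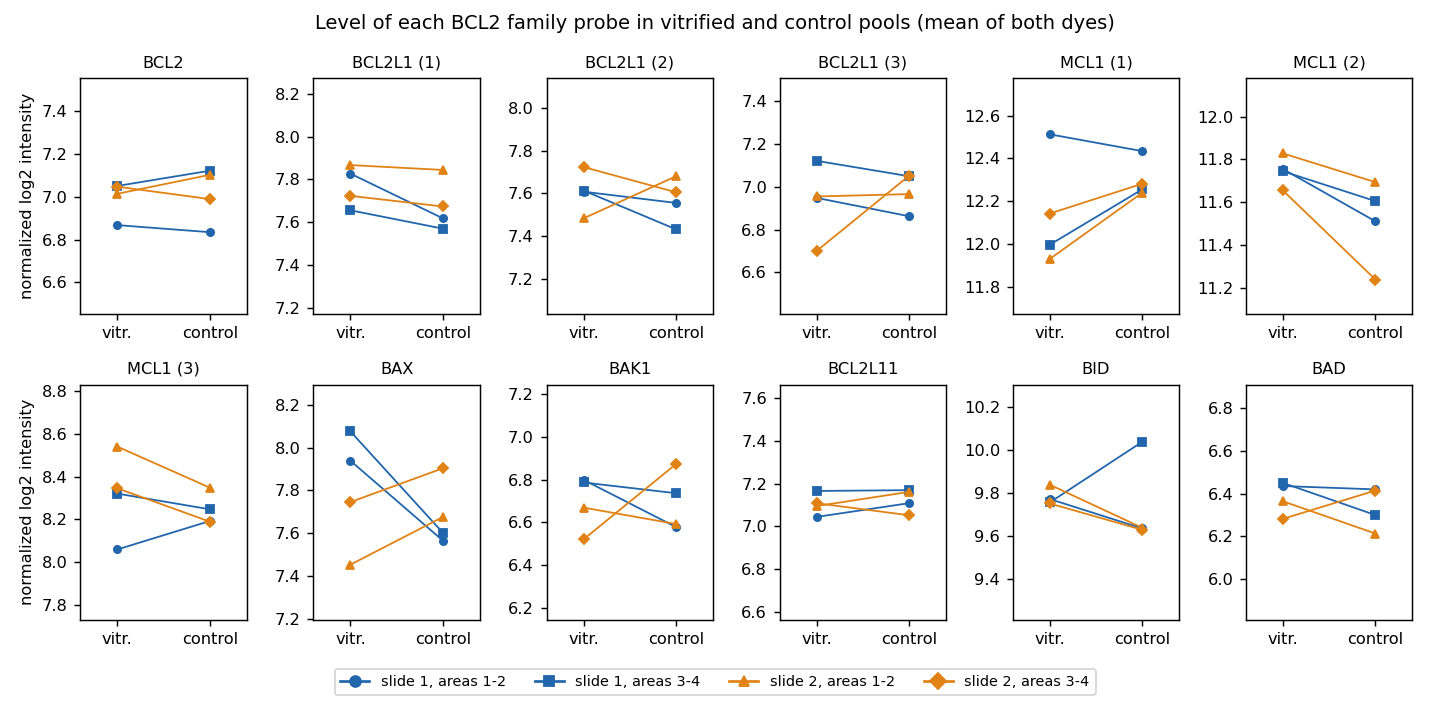
Normalized log2 intensity (vertical axis, a range of equal height in every panel) of the 12 BCL2 family probes in the vitrified pool (left) and the control pool (right) of each dye-swap pair, averaged over both dyes. Lines join the pools of a pair, blue for the first and orange for the second slide. The lines of BAX fall from left to right on the first slide and climb on the second, and no panel has its 4 vitrified pools apart from its 4 control pools.

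BAX, the effector that moves from the cytosol to mitochondria, differed between the slides. On the first slide its log2 ratios were 0.27, 0.48, 0.47 and 0.48 on the 4 arrays, and on the second slide they were -0.25, -0.20, -0.21 and -0.11. The pair values were 0.37, 0.47, -0.22 and -0.16, with a mean of 0.12 ± 0.36 (SD, n = 4 pairs), a 95% interval from -0.27 to 0.50 and a limma adjusted p of 0.927. The levels were 7.94, 8.08, 7.45 and 7.74 in the vitrified pools, against 7.56, 7.60, 7.68 and 7.90 in the control pools. The vitrified pools of the first slide were the highest of the 8, and that of the third pair was the lowest.

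The mean BAX ratio was 0.42 on the first slide and -0.19 on the second, a difference of 0.61. The slide term had an unadjusted limma p of 0.00256 and an adjusted p of 1, and the same term was called at an unadjusted p under 0.05 for 4.41% of tested probes. Both pairs of the first slide lay on the other side of 0 from both pairs of the second for 2 of the 11 member probes, BAX and the BCL2L1 probe EMBV3_29163, against 10.1% of tested probes. A pattern with all 4 arrays of each slide on opposite sides of 0 was shown by 1 of the 11 member probes, BAX, and by 1.12% of tested probes. The SD of BAX over the pairs stood at percentile 89.2 of tested probes. Each slide holds 2 pairs, so slide and pools cannot be told apart.

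BAK1, the effector that resides in the mitochondrial membrane, was close to the limit of detection, above background on 4 of 8 vitrified and 4 of 8 control channels. Its log2 ratios in the 4 pairs were 0.22, 0.050, 0.077 and -0.35, with a mean of -0.0012 ± 0.25 (SD, n = 4 pairs) and a 95% interval from -0.27 to 0.27. The limma adjusted p was 0.999. Its level was 6.80, 6.79, 6.67 and 6.52 in the vitrified pools, against 6.58, 6.74, 6.59 and 6.87 in the control pools. The fourth pair alone lay below 0, and it held both the lowest vitrified and the highest control level.

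**Figure D3:**
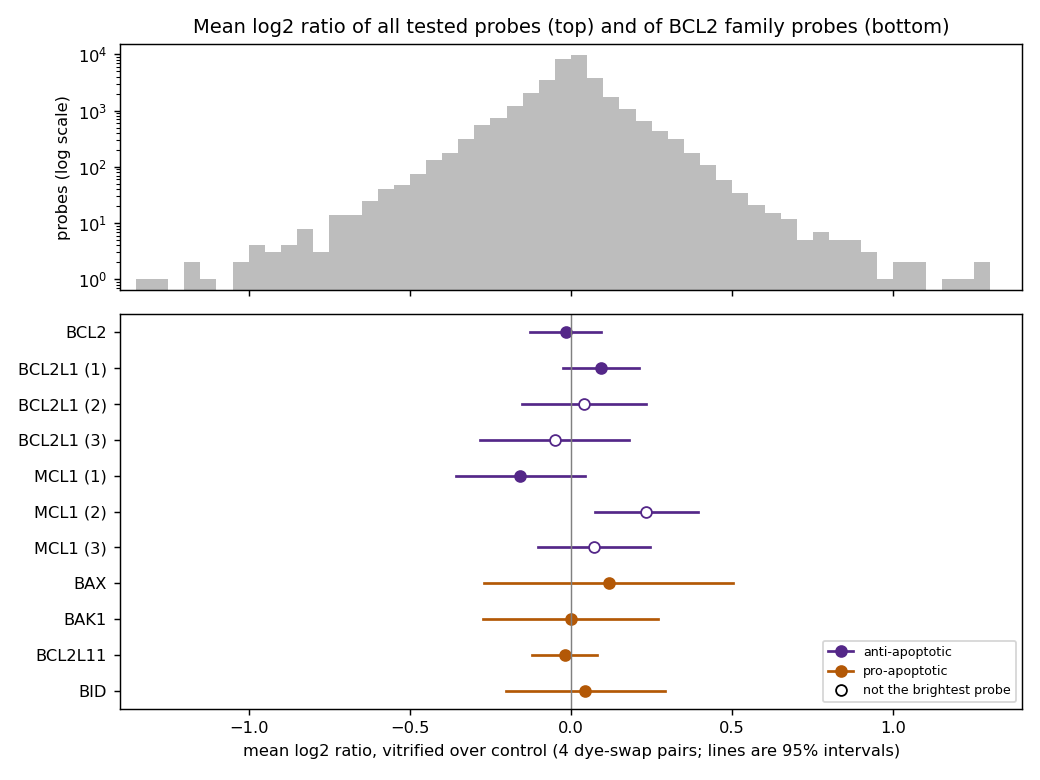
Mean log2 ratio of vitrified over control (horizontal axis) for all 35362 tested probes, as a histogram with a logarithmic count axis (top), and for the 11 tested BCL2 family probes with 95% intervals over 4 dye-swap pairs (bottom). Filled points are the brightest probe of a gene and open points its other probes. The interval of the second MCL1 probe, from 0.073 to 0.39, is the only one that leaves out 0, and the BAX interval is the widest.

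Among the BH3-only genes, BID encodes a protein that is cleaved by caspase-8 and links death receptors to mitochondria. The log2 ratios of BID were 0.14, -0.28, 0.20 and 0.12 in the 4 pairs, with a mean of 0.045 ± 0.22 (SD, n = 4 pairs), a 95% interval from -0.20 to 0.29 and a limma adjusted p of 0.959. Its level was 9.77, 9.76, 9.84 and 9.75 in the vitrified pools, against 9.63, 10.04, 9.64 and 9.63 in the control pools. The vitrified pools lay between 9.75 and 9.84, and 1 control pool, that of the second pair, stood above the other 7 pools.

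BCL2L11, whose product BIM binds all the guardians, varied least of the members. Its log2 ratios were -0.064, -0.0038, -0.066 and 0.056 in the 4 pairs, with a mean of -0.020 ± 0.058 (SD, n = 4 pairs), a 95% interval from -0.12 to 0.081 and a limma adjusted p of 0.954. The levels were 7.04, 7.17, 7.10 and 7.11 in the vitrified pools, against 7.11, 7.17, 7.16 and 7.05 in the control pools. Its interval corresponds to 0.920-fold to 1.06-fold of control. The mean log2 intensity of its probe was 7.12, also near the background limits, and compression of ratios this dim was not tested.

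BAD, a BH3-only protein that survival kinases inactivate by phosphorylation, was not well above background on any array in either channel, so it was not tested and no fold is given. Its measured levels were 6.44, 6.45, 6.36 and 6.28 in the vitrified pools and 6.42, 6.30, 6.21 and 6.41 in the control pools.

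The balance between guardians and executioners is often summarized as a ratio. With the brightest tested probe of each gene, the 3 anti-apoptotic genes had mean log2 ratios of 0.11, -0.081, -0.13 and -0.011 in the 4 pairs, and the 4 tested pro-apoptotic genes had 0.17, 0.059, -0.0028 and -0.083. The anti-apoptotic minus pro-apoptotic difference was -0.060, -0.14, -0.12 and 0.072, a mean of -0.063 ± 0.096 (SD, n = 4 pairs). It was below 0 in 3 pairs and above 0 in the fourth, and its mean was smaller than its SD. With MCL1 represented by its second probe the mean was 0.068, and without MCL1 it was 0.0022, both tried after seeing the data. With the mean over all tested probes of each gene it was -0.016. Without BCL2L1 it was -0.12 and without BAX -0.036, also tried after seeing the data, so its size and, through MCL1, its sign depended on the genes and probes read. BAX minus BCL2, a pair of transcripts often set against each other in embryos, was 0.34, 0.55, -0.13 and -0.22, with a mean of 0.13 ± 0.37 (SD). It was above 0 on the first slide and below 0 on the second, as BAX was.

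**Figure D4:**
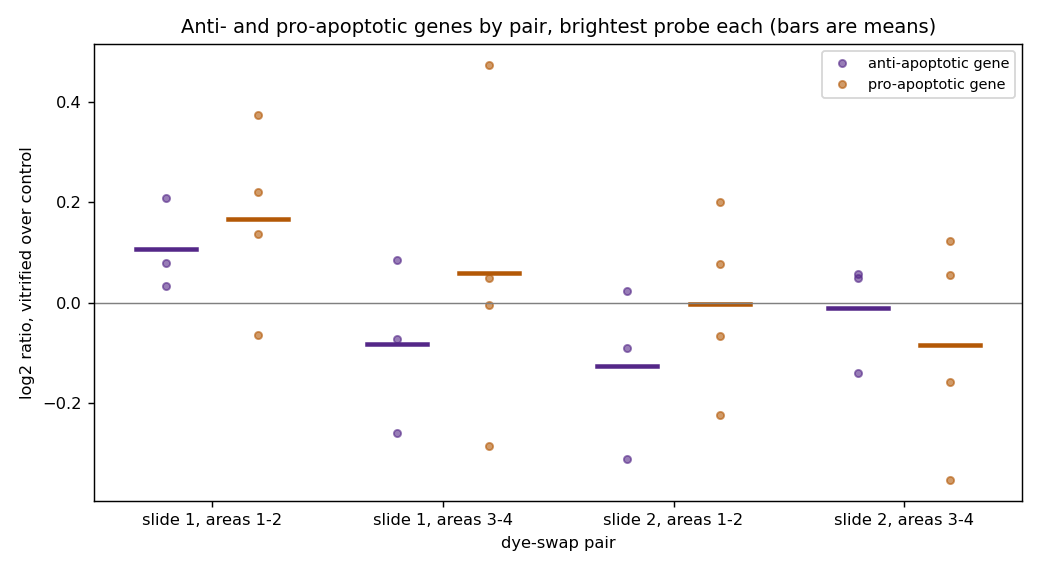
Log2 ratio of vitrified over control (vertical axis) of the 3 anti-apoptotic and 4 tested pro-apoptotic genes in each dye-swap pair, by the brightest probe of each gene; bars are means over the genes. The anti-apoptotic mean lies below the pro-apoptotic mean in the first 3 pairs and above it in the fourth, and the genes of both kinds spread over both sides of 0 in most pairs.

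The wider BCL2 group was described with the brightest tested probe of each gene. Of 17 further BCL2 proteins and their binding partners, 13 were tested, and 0 passed the adjusted test. Their median log2 ratio was 0.026, with 8 above and 5 below 0, against 18140 and 17216 of all tested probes. Of the 13, 3 had an unadjusted limma p under 0.05, against 7.67% of all tested probes. The same sign in all 4 pairs was shown by 3 of the 13, against 15.6% of all tested probes. BOK, a BAX-like protein, had pair values of 0.41, 0.33, 0.046 and 0.51, with a mean of 0.32 ± 0.20 (SD) and an adjusted p of 0.519. BNIP1, a BH3-only protein of the endoplasmic reticulum, had 0.15, 0.10, 0.11 and 0.22, with a mean of 0.14 ± 0.055 (SD) and an adjusted p of 0.512. BECN1, an autophagy protein that BCL2 binds, had -0.057, -0.39, -0.11 and -0.42, with a mean of -0.24 ± 0.19 (SD) and an adjusted p of 0.599.

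Downstream of the family lie the mitochondrial channels, the factors released from mitochondria and the apoptosome, the complex of cytochrome c and APAF1 that activates caspase-9. Of 18 such genes 15 were tested and 0 passed, with 4 above and 11 below 0 and a median log2 ratio of -0.021. Over all tested probes, 18140 lay above and 17216 below 0. DIABLO, which on release from mitochondria blocks inhibitors of caspases, had pair values of -0.054, -0.12, -0.21 and -0.15, with a mean of -0.14 ± 0.066 (SD) and an adjusted p of 0.555. The adenine nucleotide carriers SLC25A4 and SLC25A6, of the inner mitochondrial membrane, lay on opposite sides of 0. SLC25A4 averaged 0.11 ± 0.050 (SD, adjusted p from limma 0.578) and SLC25A6 averaged -0.16 ± 0.17 (SD, adjusted p from limma 0.736). Each had the same sign in 4 of 4 pairs, which was the condition for naming a gene. It was met by 3 of the 15 genes, against 15.6% of all tested probes.

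**Figure D5:**
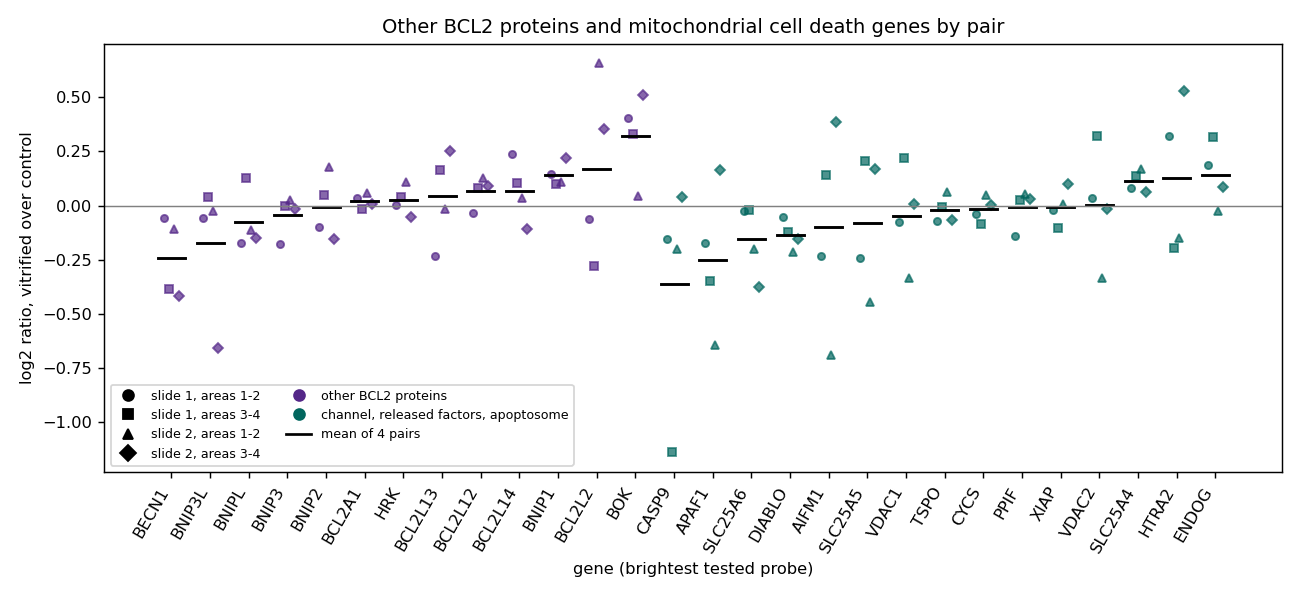
Log2 ratio of vitrified over control (vertical axis) in each dye-swap pair for 13 other BCL2 proteins and partners (purple) and 15 genes of the mitochondrial channels, released factors and apoptosome (green), by the brightest tested probe; shape gives the pair and bars the mean of 4 pairs. BOK has the highest mean at 0.32, and the points of most genes lie on both sides of 0.

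Upstream, 32 of 33 regulators of BCL2 proteins were tested and 0 passed, with 9 above and 23 below 0 and a median log2 ratio of -0.049. Over all tested probes, 18140 lay above and 17216 below 0. At an unadjusted p under 0.05, 5 lay below 0 and 0 above, against 4.27% and 3.4% of all tested probes. ATF4, the transcription factor of the integrated stress response, had pair values of -0.33, -0.41, -0.37 and -0.25 and a mean of -0.34 ± 0.068 (SD), or 0.79-fold. Its unadjusted limma p was 0.000574 and its adjusted p 0.439. TRIB3, a pseudokinase that ATF4 induces, had -0.38, -0.46, -0.13 and -0.15, with a mean of -0.28 ± 0.17 (SD) and an adjusted p of 0.516. MAPK9, a JNK kinase that phosphorylates BCL2 proteins, averaged -0.40 ± 0.54 (SD), with -1.19 in the fourth pair and -0.24 to -0.040 in the others. Its unadjusted limma p was 0.132 and its adjusted p 0.778, so MAPK9 was not among the 5.

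Markers of the embryo's cell types were read beside these values. Of 10 trophectoderm markers 8 lay above 0, with a median log2 ratio of 0.078. Of 7 inner cell mass markers 6 lay below 0, with a median of -0.18. Over all tested probes, 18140 lay above and 17216 below 0. The trophectoderm median was 0.051, 0.19, -0.025 and 0.27 in the 4 pairs. The inner cell mass median was -0.25, -0.033, 0.030 and -0.51, so both medians turned sign in the third pair. No marker of either type passed the adjusted test. At an unadjusted limma p under 0.05, 3 of the 10 trophectoderm markers lay above 0, against 3.4% of all tested probes, and 3 of the 7 inner cell mass markers lay below 0, against 4.27%. Markers, too, were named only if their 4 pairs shared a sign. This held for 2 of the 10 trophectoderm and 2 of the 7 inner cell mass markers, against 15.6% of all tested probes. Of the trophectoderm markers, IFNT, the interferon of the ruminant trophectoderm, averaged 0.80 ± 0.51 (SD) and KRT8, a keratin, 0.45 ± 0.31 (SD), each above 0 in 4 of 4 pairs. Of the inner cell mass markers, the pluripotency factor NANOG averaged -0.49 ± 0.24 (SD) and TDGF1, a co-receptor of NODAL, -0.35 ± 0.26 (SD), and the primitive endoderm marker PDGFRA, a growth factor receptor, averaged -0.87 ± 0.44 (SD), each below 0 in 4 of 4 pairs. The adjusted p of these 5 genes from limma lay between 0.457 and 0.564. The TDGF1 probe was dim, above background on 2 of 8 vitrified and 5 of 8 control channels. It was bright enough to be tested only in the control group, so its direction is not independent of that choice. TDGF1 is among the 3 inner cell mass markers below 0 at an unadjusted limma p under 0.05. Of the other tested PDGFRA probes, EMBV3_37263 averaged 0.062 ± 0.062 (SD) and EMBV3_36697 -0.31 ± 0.28 (SD). The mean level of the trophectoderm markers was 10.02 to 10.32 in the vitrified pools and 9.88 to 10.07 in the control pools, and that of the inner cell mass markers was 8.92 to 9.40 in the vitrified pools and 9.21 to 9.44 in the control pools. The part of these cell type markers in the values of the BCL2 family was not tested. The median was -0.20 over 4 primitive endoderm, 0.0072 over 9 cumulus, -0.069 over 4 sperm, -0.012 over 5 oocyte and -0.033 over 3 blood markers that were tested. With the same sign in 4 of 4 pairs, the sperm marker SPAM1 averaged 0.41 ± 0.11 (SD), the sperm marker TNP1 -0.19 ± 0.048 (SD), the oocyte marker FIGLA 0.12 ± 0.14 (SD) and the cumulus marker FSHR -0.062 ± 0.023 (SD), with adjusted p from limma of 0.439 to 0.777. The SPAM1 probe was dim, above background on 8 of 8 vitrified and 3 of 8 control channels. It was bright enough to be tested only in the vitrified group, so its direction is not independent of that choice. The other tested SPAM1 probe averaged 0.020 ± 0.044 (SD).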

How the data were processed

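Per the file headers, the deposited scanner files hold raw Cy5 and Cy3 intensity for every spot, with the background around it. The authors' deposited value table holds log2 values per probe. Set against the scanner ratios, each column correlated at r of 0.776 to 0.82, so its direction was taken to be vitrified over control, with medians of 0.0031, -0.0012, -0.00032, 0.0035, -0.0098, 0.00064, -0.010 and 0.010. How the authors normalized it stays unknown, and it served as an alternative. Per the labels' protocols, RNA was amplified in rounds of T7 transcription before labelling, which can change relative levels.

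Mean spot intensities were corrected with normexp (offset 50) and normalized by loess within each array, giving the 1418 control spots no weight (limma 3.58.1, R 4.3.3). On each array 15 to 53 spots whose local background reached their signal were left out before the normexp fit, because on 2 arrays they distorted it. The limit of background in a channel was set from its 153 negative controls, as their mean and 2 SD on top, without those beyond 3 median absolute deviations. A probe was tested when above background on at least 4 of 8 arrays in 1 of the 2 channels. Per file, 8 spots with no name and 14 lines of summary were dropped.

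Vitrified over control was averaged over the 2 arrays of a neighbouring pair, and the 4 resulting values were tested against 0 with lmFit and eBayes, with Benjamini-Hochberg adjustment over all tested probes. Arrays that share a replicate number in the labels have the vitrified pool in the same dye and form no swap. Replicates are biological per the labels, but no source says whether the pools were cultured separately, so p-values measure only the spread between these pools. The precision is limited by the number of arrays. On data simulated at the spread of this comparison, with 35206 probes, 87% of 100 probes changed by 1 on the log2 scale were called, and 92% of 100 changed by 2. Probes were drawn independently and changes were added to normalized ratios. Correlation between probes and compression of dim probes were therefore not simulated, and these shares may not hold for the dim member probes. Changes as small as the mean ratios of the member probes, -0.16 to 0.23, were also not simulated. A gene with several probes was represented by its brightest tested probe, and every member probe is given. In the gene lists, up to 3 genes with the largest absolute ratio and the same sign in all 4 pairs were named. The members and the lists were chosen with earlier results of these data known. The annotation gave 1 symbol to 21790 probes, several to 0, and 12516 of its 15229 symbols were found in RefSeq's table of NIAB-ARS_B.indTharparkar_mat_pri_1.0, used for names only.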

Additional observations from a re-analysis of the deposited data

Results flagged for a closer look

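Dixon's test, which flags a value far from the others of its group, was applied to the 4 pair values of 30 probes and marked 2, where chance gives about 1.5. BID (EMBV3_11552) had -0.28 in the second pair, against 0.12 to 0.20 in the others, and the gap was 0.838 of its whole range. FIGLA (EMBV3_41747), an oocyte transcription factor among the fixed markers, had 0.32 in the fourth pair, against 0.022 to 0.063 in the others, and the gap was 0.863 of its range.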

How the results depend on the processing

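The pair means called 0 probes (2713 at an unadjusted p under 0.05), and averages by replicate number also called 0. Treated as 8 single arrays, 805 probes were called, with a replicate block of the labels' numbers 1250, and with the neighbouring pair as a block 153. The single-array and replicate-block fits count the arrays of a swap as separate pools. The replicate block had an estimated correlation of -0.106 and the neighbouring pair one of 0.646, so the ratios grouped by neighbouring area and not by replicate number. Neighbouring areas also share a slide, and the labels do not state which areas hold the same pools. Among the member probes only the second MCL1 probe crossed the threshold, with an adjusted limma p of 0.0478 on single arrays and 0.0296 under the replicate block, and its ratio stayed between 0.17 and 0.30. Leaving out each pair gave 0 called probes and an anti-apoptotic minus pro-apoptotic value of -0.11 to -0.037. That value moved to 0.068 with the second MCL1 probe and to 0.014 with the third, both chosen after seeing the data. Keeping the spots of high local background in the normexp fit, or all negative controls in the background limit, both also tried after seeing the data, called no member and turned no sign; the second of these left BAK1 untested. BCL2L11 kept its sign under all 21 alternatives. Signs turned as follows, and the cause was not tested. On the first slide alone BAK1 was 0.14, BID -0.073, BCL2L1 probe EMBV3_29163 0.079 and MCL1 probe EMBV3_02075 -0.030. On the second slide alone BAX was -0.19 and BCL2L1 probe EMBV3_06599 -0.040. BAK1 was 0.0038 without background correction, 0.0055 with subtraction, 0.024 with median centring and 0.0069 with scaling between arrays. With median centring BID was -0.011 and BCL2 0.0033. With median spot intensity BID was -0.019, BCL2L1 -0.026 and its probe EMBV3_06599 -0.012. In the authors' deposited table BID was -0.018, BCL2 0.0055, BCL2L1 -0.0092 and EMBV3_06599 -0.0016. The mean over all MCL1 probes was 0.050. Leaving out each pair gave BAX -0.0025 to 0.23, BAK1 -0.075 to 0.12, BID -0.0077 to 0.15, BCL2 -0.042 to 0.0066, EMBV3_06599 -0.0088 to 0.12 and EMBV3_29163 -0.097 to 0.049. BAX was -0.0025 without the second pair, and BAK1 0.12 without the fourth.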
